A study of Mus musculus with 8 samples.

Results

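The data describe 10 transcription factor genes of the lung mesenchyme, the connective tissue layer of the lung, in newborn mice: the T-box genes Tbx2, Tbx3, Tbx4 and Tbx5, the forkhead genes Foxf1, Foxf2, Foxp1 and Foxp2, the homeobox gene Meis2 and the helix-loop-helix gene Twist1. The members were chosen by name, with earlier results of these data known. All 10 were found among the 20842 genes named on the array, through 16 array features. Foxf1 stood there under its older symbol Foxf1a and was matched by its transcript accession. Foxp1 had 5 features, Foxp2 had 3 and each of the other 8 genes had 1. RNA came from lungs of 8 C57Bl/6J pups housed at 20% oxygen in a chamber between postnatal days 0 and 3. Of these, 4 were labelled wild type and 4 were labelled Fgf10 +/-, heterozygous for a disrupted Fgf10, which encodes fibroblast growth factor 10. Each RNA was measured on a 1-colour (Cy3) Agilent array. The kind of Fgf10 allele and the pups' sex and litter were not given in the sources used here. The submitters call the samples of each group independent, and whether any share a litter is not stated, so p-values measure only the spread between these samples.

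FGF10 is secreted by lung mesenchyme and drives budding of the epithelium. Tbx4 and Tbx5 are expressed in that mesenchyme and are known to sustain Fgf10 expression there, so they stand upstream of the gene that was disrupted. Tbx2 and Tbx3 are repressors that keep embryonic lung mesenchyme dividing. Foxf1 and Foxf2 respond to hedgehog signals from the epithelium, and Foxf1 is needed for lung capillaries. Foxp1 and Foxp2 are repressors known best from lung epithelium. Meis2 is a partner of Hox and Pbx proteins, and Twist1 is a general factor of mesenchymal cells.

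Promoter windows from RefSeq (GRCm38.p6, 250 bases before to 50 bases after a transcript start) were held for 5 of the 10 genes, as 7 windows: 1 each for Tbx4, Foxf2, Meis2 and Twist1, and 3 for Foxp1. They were searched on both strands for letters that these protein families bind, the T-box letters GGTGTGA, the forkhead letters TGTTTAC, the MEIS letters TGACAG and the E-box letters CATATG. T-box and MEIS matches could share the letters TGA. The MEIS letters were found in 1 of the 7 windows, a Foxp1 window, 151 bases before its start, and the other motifs in 0 of the 7. Of 32851 windows, 3.98% held the T-box letters, 3.65% the forkhead letters, 19.2% the MEIS letters and 3.91% the E-box letters. The window of Fgf10 itself held forkhead letters, beginning 11 bases before its start. So did the window of Fendrr, the noncoding gene beside Foxf1, 129 bases before its start. These stretches are shown because they are the matches found in the member windows and in the windows of Fgf10 and Fendrr. Capitals mark the match, and GTAAACA and CTGTCA are the forkhead and MEIS letters read on the opposite strand.
Fgf10, chr13:118714643-118714698, plus strand: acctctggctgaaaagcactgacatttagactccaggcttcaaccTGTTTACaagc
Fendrr, chr8:121083188-121083284, minus strand: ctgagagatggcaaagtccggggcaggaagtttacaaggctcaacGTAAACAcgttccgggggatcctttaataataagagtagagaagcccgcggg
Foxp1, chr6:99266616-99266711, minus strand: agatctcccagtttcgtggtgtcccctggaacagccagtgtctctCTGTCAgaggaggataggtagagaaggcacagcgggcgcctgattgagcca
A match describes the letters only. The expression arrays do not measure binding.

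The disrupted gene gave no check of the labels. The Fgf10 log2 signal was 7.49, 7.81, 6.89 and 7.64 in wild-type replicates 1 to 4 and 7.55, 7.96, 7.96 and 8.33 in replicates 1 to 4 of the libraries labelled Fgf10+/-. It was thus not lower in the latter, where 3 of 4 values lay above every wild-type value. The log2 difference was 0.49 (SE 0.24, 95% interval -0.06 to 1.03, limma adjusted p = 0.507). These values are those of the feature with the highest mean, which also had the largest difference. The 10 features of Fgf10 differed by 0.07 to 0.49, none of them lower. With all of them averaged the difference was 0.31 (adjusted p = 0.539 in limma). Whether they read the disrupted allele was not given in these sources. The directions below therefore rest on the labels.

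None of the 10 factors passed the test between the groups. At a limma adjusted p under 0.05, 0 of 10 passed, beside 0% of all 20842 genes, and at an unadjusted p under 0.05 the count was also 0 of 10, beside 11.0% of all genes. Their groups overlapped for all 10, where the groups of 7.39% of all genes did not overlap. Means were higher for 7 of the 10 and lower for 3 in the libraries labelled Fgf10+/-, and the median log2 difference was 0.04, beside 0.00 over all genes. The smallest adjusted p among them was 0.484, for Meis2. In a bulk lung sample, a change in the number of mesenchymal cells and a change in RNA per cell cannot be told apart.

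**Figure D1:**
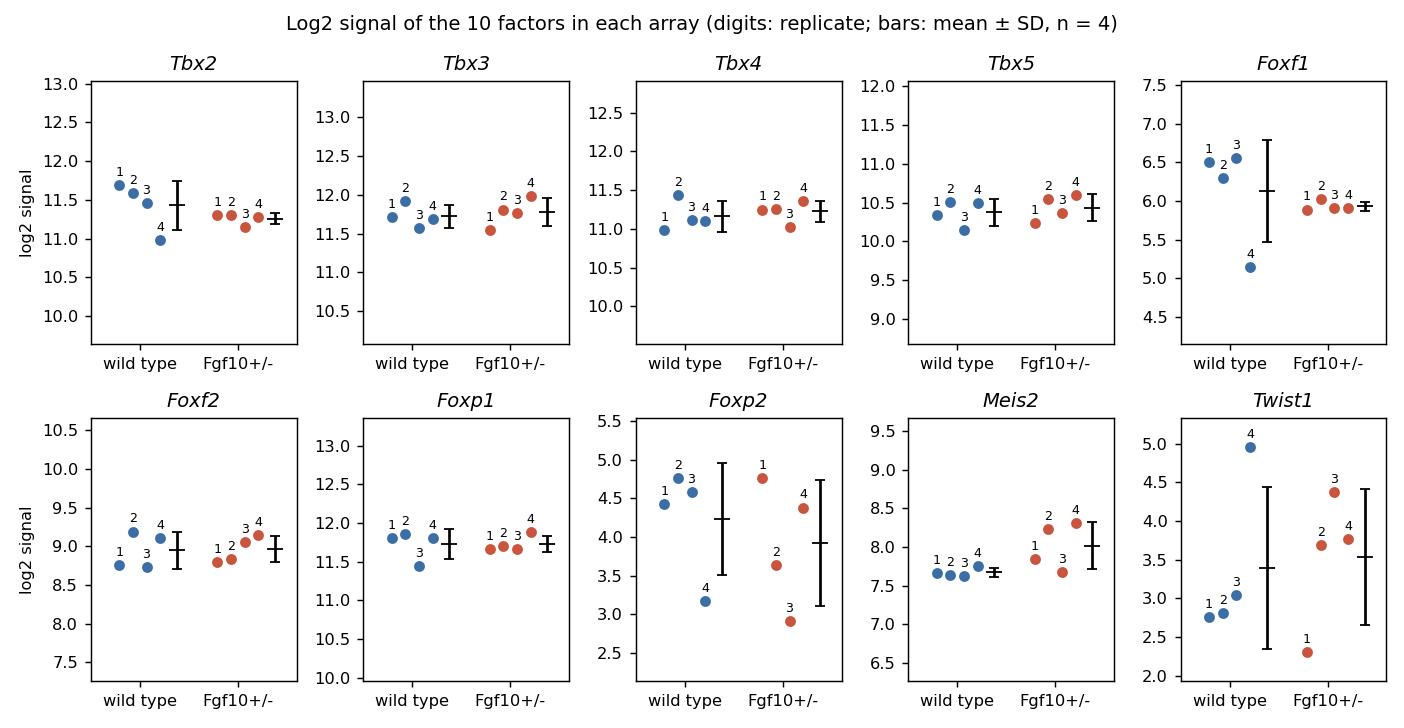
Log2 signal (vertical axes, each spanning the same number of log2 units) of the 10 factors in 4 wild-type arrays (blue) and 4 arrays labelled Fgf10+/- (red). Points are arrays, digits are replicate numbers, and bars are the mean and SD of each group. The T-box genes, Foxf2 and Foxp1 vary little, wild-type replicate 4 lies apart for Foxf1 (5.15) and Twist1 (4.96), and 3 of 4 Meis2 values labelled Fgf10+/- lie above the wild-type values.

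For Tbx4 and Tbx5, the pair upstream of Fgf10, values of both groups lay close together. Tbx4 stood at 10.98, 11.44, 11.12 and 11.10 in wild-type replicates 1 to 4 and at 11.25, 11.26, 11.03 and 11.36 in the libraries labelled Fgf10+/-. All 4 of the latter lay within the wild-type range. The log2 difference was 0.06 (SE 0.13, adjusted p = 0.907 in limma), with a 95% interval of -0.25 to 0.37, or 0.843- to 1.29-fold. It was 0.16 without wild-type replicate 2 and 0.00 without replicate 1.

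Tbx5, which is also a heart and forelimb factor, stood at 10.34, 10.51, 10.14 and 10.50 in the wild-type libraries and at 10.23, 10.55, 10.36 and 10.60 in those labelled Fgf10+/-. The groups overlapped, with 2 of the 4 values of the latter just above the wild-type maximum. The difference was 0.06 (SE 0.14, interval -0.25 to 0.37, adjusted p = 0.914 in limma; two-sided exact permutation p = 0.629, as for Tbx4). Both intervals leave out any fall by 0.5 or more on the log2 scale, and both include 0.

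Tbx3, the neighbour of Tbx5 on chromosome 5 and a repressor, had a difference of the same size. It stood at 11.71, 11.92, 11.57 and 11.69 in the wild-type libraries and at 11.55, 11.81, 11.77 and 11.99 in those labelled Fgf10+/-, so that the latter held both the lowest and the highest of the 8 values. The difference was 0.06 (SE 0.13, interval -0.24 to 0.36, adjusted p = 0.910 in limma).

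Tbx2, the neighbour of Tbx4 on chromosome 11, was the T-box member with the largest difference. Its wild-type values were 11.69, 11.59, 11.46 and 10.98, and those of the libraries labelled Fgf10+/- were 11.30, 11.30, 11.15 and 11.28. The first 3 wild-type values lay above all 4 of the other group and wild-type replicate 4 lay below all 4. The difference was -0.17 (SE 0.16, interval -0.55 to 0.20, adjusted p = 0.758 in limma; exact permutation p = 0.371). Without wild-type replicate 4 it was -0.32 (SE 0.11, adjusted p = 0.304), without replicate 1 it was -0.09 and without replicate 2 it was -0.12. Leaving out each library in turn thus gave -0.32 to -0.09, and over all alternatives the adjusted p in limma ran from 0.304 to 0.930.

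**Figure D2:**
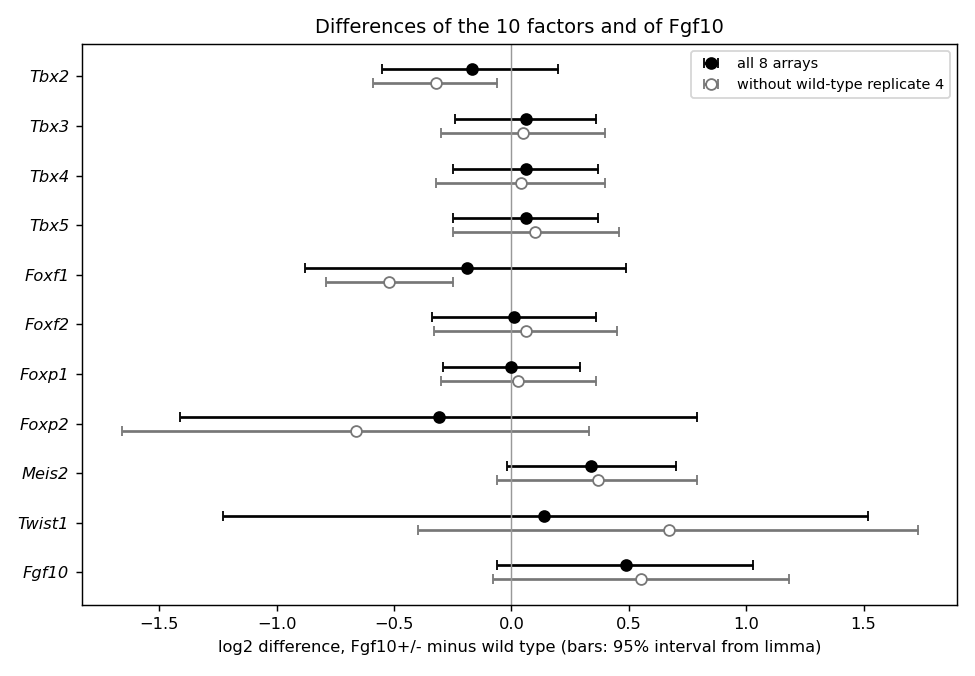
Log2 difference of each factor and of Fgf10 (horizontal axis, libraries labelled Fgf10+/- minus wild type) with its 95% interval from limma, over all 8 arrays (filled) and without wild-type replicate 4 (open). The intervals of Tbx3, Tbx4, Tbx5, Foxf2 and Foxp1 lie within 0.5 of 0, those of Foxp2 and Twist1 reach past 1, and Foxf1 moves from -0.19 to -0.52.

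For Foxf1, the hedgehog target needed for lung capillaries, the value depended on the same library. Its wild-type values were 6.51, 6.30, 6.55 and 5.15, and those labelled Fgf10+/- were 5.89, 6.02, 5.91 and 5.91. The first 3 wild-type replicates thus lay above all 4 of the other group, whose SD was 0.06, and replicate 4 lay more than a log2 unit below its own group. Over all arrays the means were 6.12 ± 0.66 (SD, n = 4) and 5.93 ± 0.06 (SD, n = 4).

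The Foxf1 difference was -0.19 (SE 0.30, interval -0.88 to 0.49, adjusted p = 0.865 in limma; exact permutation p = 0.657). Without wild-type replicate 4 it was -0.52 (SE 0.11, interval -0.79 to -0.25). This did not pass either, with an adjusted p of 0.155 in limma and a range of 0.155 to 0.976 over all alternatives. Without that library 0 of the 10 factors passed, beside 0.00480% of all genes. The groups then did not overlap for 3 of the 10 factors, beside 13.7% of all genes: Foxf1 and Tbx2 were lower and Meis2 was higher in the libraries labelled Fgf10+/-. Meis2 separated only narrowly, with a remaining wild-type maximum of 7.67 and a lowest value of 7.68 in the other group. With wild-type replicate 1, 2 or 3 left out instead, the Foxf1 difference was -0.07, -0.13 or -0.05.

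Foxf2, the closest relative of Foxf1, had nearly equal means. It stood at 8.76, 9.19, 8.73 and 9.10 in the wild-type libraries and at 8.80, 8.84, 9.06 and 9.14 in those labelled Fgf10+/-. All 4 of the latter lay inside the wild-type range, and the difference was 0.01 (SE 0.15, interval -0.34 to 0.36, adjusted p = 0.989 in limma). Wild-type replicate 4, low for Foxf1, was the second highest of its group for Foxf2.

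Foxp1 was read by 5 features, of which the one with the highest mean stood for the gene. That feature stood at 11.80, 11.86, 11.44 and 11.81 in the wild-type libraries and at 11.67, 11.70, 11.67 and 11.88 in those labelled Fgf10+/-. The means were 11.73 in both groups and the difference was 0.00 (SE 0.13, interval -0.29 to 0.29, adjusted p = 0.996 in limma). A second feature for the same transcript differed by 0.01. Those for 3 other transcripts differed by -0.23 (accession AK144920), -0.16 (NM_001197321) and 0.12 (BC065386), the last at signals of 1.95 to 3.09, all below the array median of 3.47. None of the 5 passed with every feature tested on its own, where the smallest adjusted p was 0.645.

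Foxp2, the paralogue of Foxp1, was read at low signals. Its brightest feature stood at 4.42, 4.76, 4.58 and 3.17 in the wild-type libraries and at 4.76, 3.64, 2.92 and 4.38 in those labelled Fgf10+/-, and the other 2 features stayed between 1.86 and 3.14. Low values came from both groups: replicate 3 labelled Fgf10+/- and wild-type replicate 4 were the lowest of the 8. The difference was -0.31 (SE 0.48, interval -1.41 to 0.79, adjusted p = 0.864 in limma), and it was 0.03 without replicate 3 labelled Fgf10+/-. The other 2 features differed by -0.22 (SE 0.25) and -0.26 (SE 0.23), and all 3 read RNA of the same gene.

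Meis2, the homeobox partner of Hox and Pbx proteins, had the smallest adjusted p of the 10. Its wild-type values were 7.67, 7.64, 7.63 and 7.75, a spread of 0.05 (SD, n = 4), and those labelled Fgf10+/- were 7.84, 8.23, 7.68 and 8.31, a spread of 0.30. Replicates 2 and 4 of the latter were well above the wild-type range, replicate 1 was just above it and replicate 3 was inside it. The difference was 0.34 (SE 0.16, interval -0.02 to 0.70), with an adjusted p of 0.484 in limma. The two-sided exact permutation p was 0.0571, where 70 assignments can give no less than 0.0286. Leaving out each replicate in turn gave 0.24 to 0.45.

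Twist1, a factor of mesenchyme in many tissues, was also read at low signals, near the array median, and varied most. It stood at 2.76, 2.81, 3.05 and 4.96 in the wild-type libraries and at 2.31, 3.69, 4.38 and 3.77 in those labelled Fgf10+/-. Wild-type replicate 4 had the highest value of all 8. The difference was 0.14 (SE 0.60, interval -1.23 to 1.52, adjusted p = 0.956 in limma), and it was 0.67 without wild-type replicate 4 (adjusted p = 0.594). Its relative Twist2, on the list of relatives and partners, differed by -0.04 (SE 0.16).

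Wild-type replicate 4 also stood apart for markers of tissues other than lung. Its cartilage markers lay 3.13 log2 units above the mean of all 8 arrays, as the average of 12 genes, and 9 of the 12 were highest there. Their summed signal, as log2, was 14.19 in that library, 8.30 to 8.41 in the other wild-type libraries and 8.01 to 8.40 in those labelled Fgf10+/-. Skeletal muscle markers lay 2.25 above the mean, with 8 of 12 highest in that library, and their summed signal was 12.74 there against 8.96 to 9.11 and 8.78 to 9.22. Fat markers lay 1.48 above, with 7 of 10 highest, and their sum was 10.48 against 8.87 to 9.22 and 8.76 to 8.96. Tbx2 and Foxf1 were lowest and Twist1 was highest in this library among all 8, and the part of these tissues in those values was not tested.

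**Figure D3:**
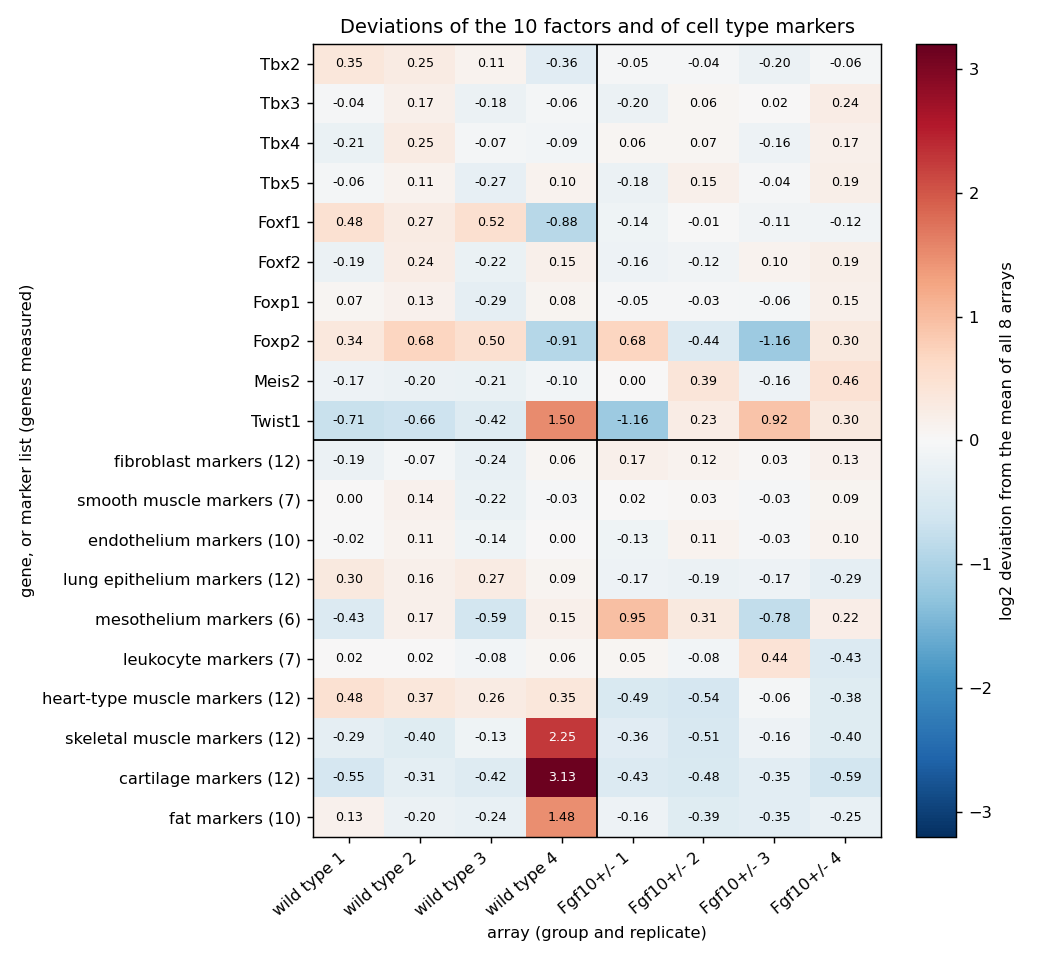
Log2 deviation from the mean of all 8 arrays (colour and printed value) for the 10 factors (upper block) and for the average of each marker list (lower block), by array. Wild-type replicate 4 is low for Foxf1 (-0.88), Foxp2 (-0.91) and Tbx2 (-0.36) and high for Twist1 and for cartilage (3.13), skeletal muscle (2.25) and fat (1.48) markers.

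The markers of lung tissue were present in every library, with the surfactant gene Sftpc between 15.98 and 15.99, at the top of the scale. Of 12 markers of fibroblasts and general mesenchyme, means of 10 were higher in libraries labelled Fgf10+/-, with a median of 0.22 and a summed signal of 16.69 to 16.94 against 16.42 to 16.71. Means of all 12 lung epithelial markers were lower, with a median of -0.42 and a summed signal of 17.46 to 17.57 against 17.62 to 17.76. Sftpc was lower by a difference that rounds to 0.00 and Scgb1a1 (15.91 to 15.98) by -0.03. Both lie near the top of the scale, where a change may not show, and the summed signal includes them. Neither list had a member past the test. The groups did not overlap for 8 of the 12 epithelial markers, all lower, beside 4.40% of all genes. For the fibroblast and mesenchyme markers this held for 1 of 12, which was higher, beside 2.99% of all genes. Smooth muscle markers separated more often: 3 of 7 had no overlap, all higher, and 0 passed. Means of 6 of the 7 were higher, with a median of 0.07 and a summed signal of 14.86 to 14.94 against 14.67 to 14.80. Endothelial markers had a median of 0.03 over 10 genes, with 0 passed and 0 without overlap. The shifts of the marker lists stand beside the factors' own median of 0.04, and their part in the factors' values was not tested.

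Other transcription factors of lung mesenchyme mostly had higher means. Of 24 on the list, 0 passed the test, 18 means were higher in libraries labelled Fgf10+/- and 6 were lower, with a median of 0.29. The groups did not overlap for 5 of the 24, all higher: Gli3, a hedgehog effector, Prrx1 and Osr1, factors of embryonic mesenchyme, Snai2, a repressor of epithelial genes, and Heyl, a Notch target. Over all genes, 2.99% were higher without overlap. The separation was narrow for Gli3, whose lowest value labelled Fgf10+/- was 7.93 against a wild-type maximum of 7.92. It was as narrow for Prrx1 (7.33 against 7.32) and Heyl (8.94 against 8.93). Snai2 stood at 10.10 ± 0.19 (SD, n = 4) in wild type and 10.58 ± 0.14 in libraries labelled Fgf10+/-, a difference of 0.48 (SE 0.13, adjusted p = 0.247 in limma). Osr1 differed by 0.52 (SE 0.15, adjusted p = 0.271). Tcf21, which marks lung fibroblasts, differed by 0.21, and the hedgehog target Gli1 by -0.15. The fibroblast markers, which share Tcf21 with this list, mostly had higher means too, and their part was not tested.

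The other members of the T-box family mostly had lower means. Of 12 measured, 0 passed, 3 had a higher and 9 a lower mean, with a median of -0.28. Many were read at low signals, which limits what these directions show. Both group means of Eomes, Tbx15, Tbx19, Tbx10, Tbr1 and Tbx21 lay below the array median of 3.47. Of these, Tbr1 and Tbx21 had higher means and the others lower ones. Tbx20, a heart factor, was 5.53, 5.41, 4.81 and 4.34 in the wild-type libraries and 3.31, 3.06, 3.57 and 3.56 in those labelled Fgf10+/-, so the groups did not overlap. Its values in the latter lay near the array median. Tbx20 was the only one of the 12 without overlap (8.33% of them, beside 7.39% of all genes), with a difference of -1.65 (SE 0.27, adjusted p = 0.124 in limma). Means of all 12 markers of heart-type muscle were lower as well, with a median of -0.78 and a summed signal of 13.49 to 14.12 against 14.25 to 14.71, and their part in the Tbx20 value was not tested. Tbx5, which heart muscle also uses, differed by 0.06 in the same arrays, as given above. Tbx1 differed by -0.39 (SE 0.19).

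Of 39 other forkhead genes, 0 passed, 22 had a higher and 17 a lower mean, and the median was 0.04, as for the 10 factors. The groups did not overlap for 3 (7.69% of them, near the 7.39% of all genes). These were the epithelial factors Foxa1 (-0.54, SE 0.11) and Foxa2 (-0.65, SE 0.14), and Foxi1 (0.97, SE 0.31), a factor of ionocytes at low signals. Foxa1 and Foxa2 had adjusted p of 0.157 and 0.171 in limma. The lung epithelial markers had lower means in the same libraries, and their part in these values was not tested. Foxp4, the third lung member of the Foxp group, was 10.40 ± 0.11 (SD, n = 4) against 10.21 ± 0.04, a difference of -0.18 (SE 0.10, adjusted p = 0.555).

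Partners and relatives of Meis2 and Twist1 had a median of 0.08 over 18 genes, with 0 passed, 12 higher and 6 lower. Meis1 differed by 0.16 (SE 0.15) and Pknox2, another partner of this homeobox class, by 0.31 (SE 0.15). Id2, an inhibitor of helix-loop-helix proteins that marks distal lung epithelium, differed by -0.34 (SE 0.12, adjusted p = 0.358 in limma).

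**Figure D4:**
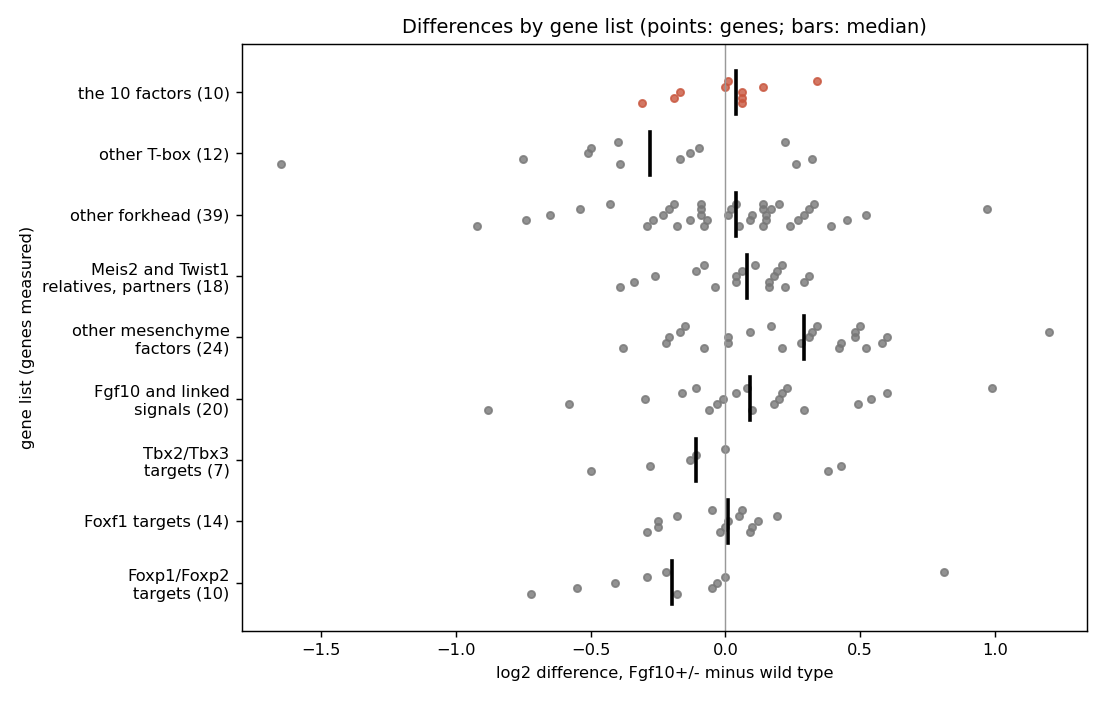
Log2 difference (horizontal axis, libraries labelled Fgf10+/- minus wild type) of each measured gene, by list. Points are genes and bars are list medians. The 10 factors lie between -0.31 and 0.34, the other T-box genes reach -1.65 at Tbx20, and other mesenchyme factors have a median of 0.29.

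Signals around the factors did not pass either. Of 20 genes on the list of Fgf10 and linked signals, 0 passed, 12 had a higher mean and 8 a lower one, with a median of 0.09 (0.05 without wild-type replicate 4). Wnt5a, a mesenchymal Wnt ligand, differed by 0.60 (SE 0.19, adjusted p = 0.302 in limma) and Fgfr2, the epithelial FGF10 receptor, by -0.58. Bmp4 and Wnt2, which Tbx4 and Tbx5 act with in lung budding, differed by 0.04 (SE 0.25) and 0.20 (SE 0.26). The hedgehog ligand Shh differed by -0.11 (SE 0.13), and its targets Ptch1 and Hhip by -0.16 (SE 0.32) and 0.08 (SE 0.14). The interval of each of these 5 includes 0.

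Genes linked to the factors as targets were described in 3 lists. The first holds 7 measured genes that Tbx2 and Tbx3 repress in lung mesenchyme or in cultured cells. Of these, 0 passed, 2 had a higher and 5 a lower mean, with a median of -0.11. The cell cycle inhibitors Cdkn1a and Cdkn1b differed by -0.11 (SE 0.15) and -0.13 (SE 0.15). The Wnt antagonists Frzb and Shisa3 differed by -0.50 (SE 0.48) and 0.43 (SE 0.44), and Cdkn2a by 0.38 (SE 0.36), at low signals. Only Cdh1, the epithelial cadherin, had groups without overlap (-0.28, SE 0.09, adjusted p = 0.302 in limma), that is 1 gene of 7, beside 7.39% of all genes. It is also 1 of the 12 epithelial markers.

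Of 14 endothelial and mesenchymal genes that Foxf1 activates, 0 passed and 0 had groups without overlap, beside 7.39% of all genes, with 8 higher, 6 lower and a median of 0.01. Vegfa, the vascular growth factor, differed by -0.18 (SE 0.12) and Pdgfb, which recruits pericytes, by 0.19 (SE 0.14). The receptor gene Kdr differed by 0.12 (SE 0.11), and Cdh5, the endothelial cadherin, by 0.01 (SE 0.10). Wild-type replicate 4, where Foxf1 was low, had the lowest of the 8 values for Tmem100 (9.95) and S1pr1 (9.47). It had the lowest wild-type value for Itgb3 (8.49) and Lyve1 (9.68). Other genes of the list went the other way in that library. Notch2 was the highest of the 8 (9.39), and Pdgfb (11.04), Tek (8.89) and Tie1 (9.61) had their highest wild-type value. The average of the 14 deviated by -0.13 there from the mean of all 8 arrays, against -0.1 to 0.21 in the others. Without wild-type replicate 4, Tmem100 moved from -0.25 to -0.46 and Lyve1 from -0.29 to -0.48. Itgb3 moved from -0.25 to -0.39, S1pr1 from 0.10 to -0.15 and Pdgfb from 0.19 to 0.26. Kdr stayed at 0.12 and the median at 0.01. The groups then did not overlap for 1 of the 14, Tmem100, beside 13.7% of all genes.

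Of 10 genes of lung epithelium repressed by or acting with Foxp1 and Foxp2, 0 passed, 1 had a higher and 9 a lower mean, with a median of -0.20. The groups did not overlap for 3, all lower, beside 4.40% of all genes: Nkx2-1 (-0.55, SE 0.15), the master factor of lung epithelium, and the alveolar type 1 genes Aqp5 (-0.41, SE 0.12) and Hopx (-0.29, SE 0.09). Adjusted p in limma was 0.244, 0.263 and 0.302. Nkx2-1, Sftpc and Scgb1a1 of this list are also among the 12 epithelial markers, whose means were lower as given above. Sftpc (0.00) and Scgb1a1 (-0.03) count among the 9 lower means but lie near the top of the scale, so their direction says little.

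The 10 factors varied together to unequal degrees across the 8 arrays. Likeness was taken as the root mean square difference, over the 8 arrays, between log2 values centred on each gene's mean. Of 45 pairs, Tbx3 and Tbx5 were closest, at 0.0819, followed by Tbx5 and Foxp1 at 0.0920 and Tbx3 and Foxp1 at 0.106. Around their own means, Tbx3 varied by 0.146 and Tbx5 by 0.154. A gene that varies little is close to any other such gene by this measure.

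Among 10420 or 10421 genes at or above the median signal, those most like the upstream pair were Slc30a4, a zinc transporter gene (0.0496), and Arhgef40 (0.0518) for Tbx4, and Tns1, which encodes a focal adhesion protein (0.0425), and Arap3 (0.0492) for Tbx5. For Tbx3 they were Frmd4a (0.0477) and Antxr2 (0.0497), and for Tbx2 they were Sdc4, a syndecan gene (0.0555), and Aph1a (0.0671). Foxf2 lay nearest to Klc1 (0.0555) and Pde5a (0.0603), and Foxp1 to Apbb2 (0.0437) and Brd9 (0.0491). These 6 members thus each had a gene within 0.06 of their own pattern.

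The other 4 members had no gene so near. They also varied more around their own means, by 0.254 (Meis2), 0.417 (Foxf1), 0.684 (Foxp2) and 0.842 (Twist1). The members with nearer genes varied by 0.132 (Foxp1) to 0.215 (Tbx2). Distances by this measure depend on how much a gene itself varies. The split therefore does not show which members had the closer match in pattern. Meis2 lay nearest to Dsn1, a kinetochore gene (0.0676), and Slc40a1, the iron exporter gene (0.0875), which differed by 0.33 and 0.21 between the groups. Foxf1 lay nearest to Rexo1 (0.140) and Rasgef1b (0.173). Foxp2 lay nearest to Lyve1, a lymphatic endothelial receptor gene (0.291), and Ephb4 (0.316). Twist1 lay nearest to S100b (0.247), a gene of cartilage and glia, and Mkks (0.382).

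The nearest measured genes on either side of each factor in RefSeq order did not pass. Tbx2 and Tbx4 are direct neighbours in that order, and Tbx3 and Tbx5 have only unmeasured genes between them. Beyond Tbx4, Brip1, a DNA repair helicase gene, differed by 0.65 (SE 0.18, adjusted p = 0.256 in limma), the smallest adjusted p among these neighbours, while Bcas3 beyond Tbx2 differed by -0.11 (SE 0.14). On either side of Foxf2 lie other forkhead genes, Foxq1 (0.14, SE 0.22) and Foxc1 (0.31, SE 0.13). Next to Foxf1, Mthfsd differed by -0.11 (SE 0.16), and next to Twist1, Hdac9 differed by -0.62 (SE 0.27, adjusted p = 0.466).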

How the data were processed

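The deposited table holds log2 signals of 62976 array features in 8 columns. Their scale was read from the values (1.51 to 15.99), and the authors had brought the arrays to a common distribution, since sorted values differed by at most 0.0042 between arrays. The submitters' processing notes name limma. How background and flags were handled was not given in these sources. A blank removed 120 features. Gene names came from the platform annotation, updated by accession against RefSeq (GRCm38.p6), which left 31425 features for 20842 genes, with the feature of highest mean standing for each gene. No filter on signal was used. At or above the 25th percentile lay 10 of the 10 factors, and at or above the median 8.

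Groups came from the titles, with 4 arrays each, whose number limits the precision. Arrays correlated between 0.977 and 0.986. The test was limma 3.58.1 in R 4.3.3 (group only, two-sided, Benjamini-Hochberg over 20842 genes). On data simulated for this comparison over 20842 genes, the test called 49 of 100 genes with a log2 shift of 1. It called 83 of 100 with a shift of 2, and 8 unchanged genes among 140 calls. With so many calls the adjusted threshold was easier to reach than in the real arrays, where 0 genes passed. These counts may therefore overstate what the main test could detect, and shifts below 1 were not simulated. Exact permutation tests used all 70 assignments. The members and lists were chosen with earlier results of these data known. Named were all members, the genes with the 2 smallest p in each list that is not a marker list, Fgf10, and for each member the 2 genes of most similar pattern. Other list members, genes without overlap and neighbours were named after their values were seen. A planned comparison of protein sequences was not run. Levels were not compared between features of different genes, and a planned pseudocount did not apply to log2 values. The TGACAG and CATATG motifs, neighbours and list values without wild-type replicate 4 were added after seeing the data.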

Additional observations from a re-analysis of the deposited data

Results flagged for a closer look

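In groups of 4, a single array lay far from the others (a gap above Dixon's critical value) in 4 of 22 groups checked, the 10 factors and Fgf10, where chance flags about 1 in 20. For Twist1, wild-type replicate 4 stood at 4.96, with the next value at 3.05. For Tbx2, replicate 3 labelled Fgf10+/- stood at 11.15, below the next value of 11.28, in a group that spans little. For Foxp1, wild-type replicate 3 stood at 11.44, below 11.80, and replicate 4 labelled Fgf10+/- stood at 11.88, above 11.70. Foxf1 in wild-type replicate 4 (5.15) did not meet this rule.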

How the results depend on the processing

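No factor passed an adjusted p of 0.05 in limma under any alternative run, the smallest being 0.155 (Foxf1 without wild-type replicate 4). The count over all genes was 0 in the main setting, 38 and 288 without genes below the 25th and 50th percentile of signal, 414 with a variance trend and robust settings, 3 with array weights, 0 with every feature on its own, and 0 to 1 with each replicate left out in turn. Foxp2 and Twist1 lie below the 50th percentile and have no value there. Of 198 member values under alternatives, 184 kept their direction and 14 did not. Foxp1 was -0.05 with all its features averaged and -0.23 for its lowest feature. With each replicate left out in turn, Tbx4 ranged from 0.00 to 0.16 and Tbx2 from -0.32 to -0.09, while Tbx3 ranged from -0.01 to 0.14, Tbx5 from -0.02 to 0.13, Foxf2 from -0.06 to 0.09, Foxp1 from -0.09 to 0.05, Foxp2 from -0.66 to 0.03 and Twist1 from -0.14 to 0.67; the cause was not tested. With the replicate number as a block, 0 genes passed and the differences were the same. Samples with the same number had deviations that correlated between 0.0178 and 0.113, and 4 of 8 samples correlated best with their own number. How many would do so by chance was not computed. These values do not settle whether the numbers pair the samples, and the main test did not pair them. Low signals (Foxp2, Twist1) limit what can be seen.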
